A study of Mesocricetus auratus with 14 samples.

Results

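The transcripts of fibrinogen and of the coagulation factors were measured by RNA sequencing in livers of Syrian golden hamsters fed a high-fat diet, in 7 DC371739-treated and 7 control samples. DC371739 is the code name of a compound, and the high-fat diet is common to both groups. The sources used here give no dose, route, duration of treatment, sex or age. Nothing in the labels states that the 14 samples are 14 animals, so p-values speak of the spread between samples, which may be technical in part. The genes were taken by symbol from the authors' deposited table. Of 10 genes sought, 8 were found: Fga, Fgb and Fgg, which encode the 3 chains of fibrinogen, and the factor genes F2, F7, F5, F11 and F12. The other 2, F9 and F10, were not analysed here. The whole count table holds 22283 genes, of which 10023 have a symbol in the second table. All 8 genes passed the filter on low counts and were tested.

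Fibrinogen is the soluble plasma protein that thrombin turns into fibrin, the mesh of a clot. Each fibrinogen molecule is built in the hepatocyte from matched copies of an alpha, a beta and a gamma chain, so hepatocytes express the 3 genes together. The coagulation factors are mostly enzyme precursors made in the liver and activated in sequence on damaged vessel walls. Fibrinogen is also a classic acute phase protein, raised in the liver by interleukin-6 through the transcription factor STAT3, whereas the levels of most other factors depend mainly on liver-enriched transcription factors such as HNF4A and C/EBP alpha.

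The libraries held 13672589 to 23948628 counts, and 3 of them stood apart. DC371739 replicate 7 and control replicates 6 and 7 held 22152239 counts or more, against at most 16710097 in the other 11, and were separated from them on the first principal component of all tested genes (scores of 41.6 to 46.8 against -30.6 to -0.97). They are called the deeper libraries here, and results are given over all 14 libraries and over the 11 shallower ones (6 DC371739 and 5 control). Hepatocyte markers were abundant throughout, the 9 of 10 that carry a symbol summing to 113358 to 136242 counts per 1000000 counts (CPM) in DC371739 libraries and 114693 to 149516 CPM in control libraries. None of these 9 passed over all 14 libraries (0 at an unadjusted p under 0.05 in edgeR, 0 adjusted in DESeq2 and 1 in limma-voom). Over the 11 shallower libraries 1 of the 9 passed, or 11.1% against 21.5% of all genes, and 3 had an unadjusted p under 0.05 (edgeR). The 1 was Apob, named after its values were seen (log2 fold change 0.36, adjusted p = 0.00647, edgeR).

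The genome build behind the deposited coordinates is not named in the sources used here. In those coordinates the fibrinogen genes lie side by side on scaffold KB708186.1, with no other gene of the table between them. Fgg (ENSMAUG00000002171) spans 12731720 to 12738956 and Fga (ENSMAUG00000019095) 12748602 to 12755849, both on the plus strand, and Fgb (ENSMAUG00000000944) spans 12763581 to 12771129 on the minus strand. Fga starts 9646 bases past the end of Fgg, and Fgb 7732 bases past the end of Fga. The factor genes lie on 5 further scaffolds, with F2 (ENSMAUG00000009414) on KB708128.1, F5 (ENSMAUG00000005793) on KB708154.1, F7 (ENSMAUG00000010922) on KB708165.1, F11 (ENSMAUG00000010989) on KB708134.1 and F12 (ENSMAUG00000011296) on KB708209.1. The counted exons sum to between 1664 bases, in Fgb, and 6387 bases, in F5.

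The 8 transcripts spanned a wide range of levels. On the authors' FPKM scale (fragments scaled by exon length and by library), which allows genes to be compared, Fgb was highest, with a level of 3576 ± 459 FPKM over the 14 libraries (SD), and F7, the factor that starts coagulation together with tissue factor, was lowest at 90.1 ± 10.1 FPKM. Fga followed Fgb at 2849 ± 453 FPKM and Fgg stood at 2674 ± 349 FPKM. F2, which encodes prothrombin, was at 1118 ± 191 FPKM, F12, the factor that starts the contact pathway, at 322 ± 72.4 FPKM, F11, which it activates, at 153 ± 67.7 FPKM, and F5, the cofactor of factor X in making thrombin, at 120 ± 18.2 FPKM. The order of Fgb above Fga held in all 14 libraries, as did those of Fgg above F2 and of F2 above F12. Fga lay above Fgg in 12 of 14 libraries, F12 above F11 in 13 and F5 above F7 in 13. F11 lay above F5 in only 9 of 14, so this pair did not differ beyond the spread. The 3 fibrinogen genes together took 1.16% to 1.74% of all counts in DC371739 libraries (median 1.57%) and 1.12% to 1.78% in control libraries (median 1.41%). Each value rests on at least 1989 counts, a counting error of 2.24% at most, so the spread between libraries and not depth sets the precision.

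**Figure D1:**
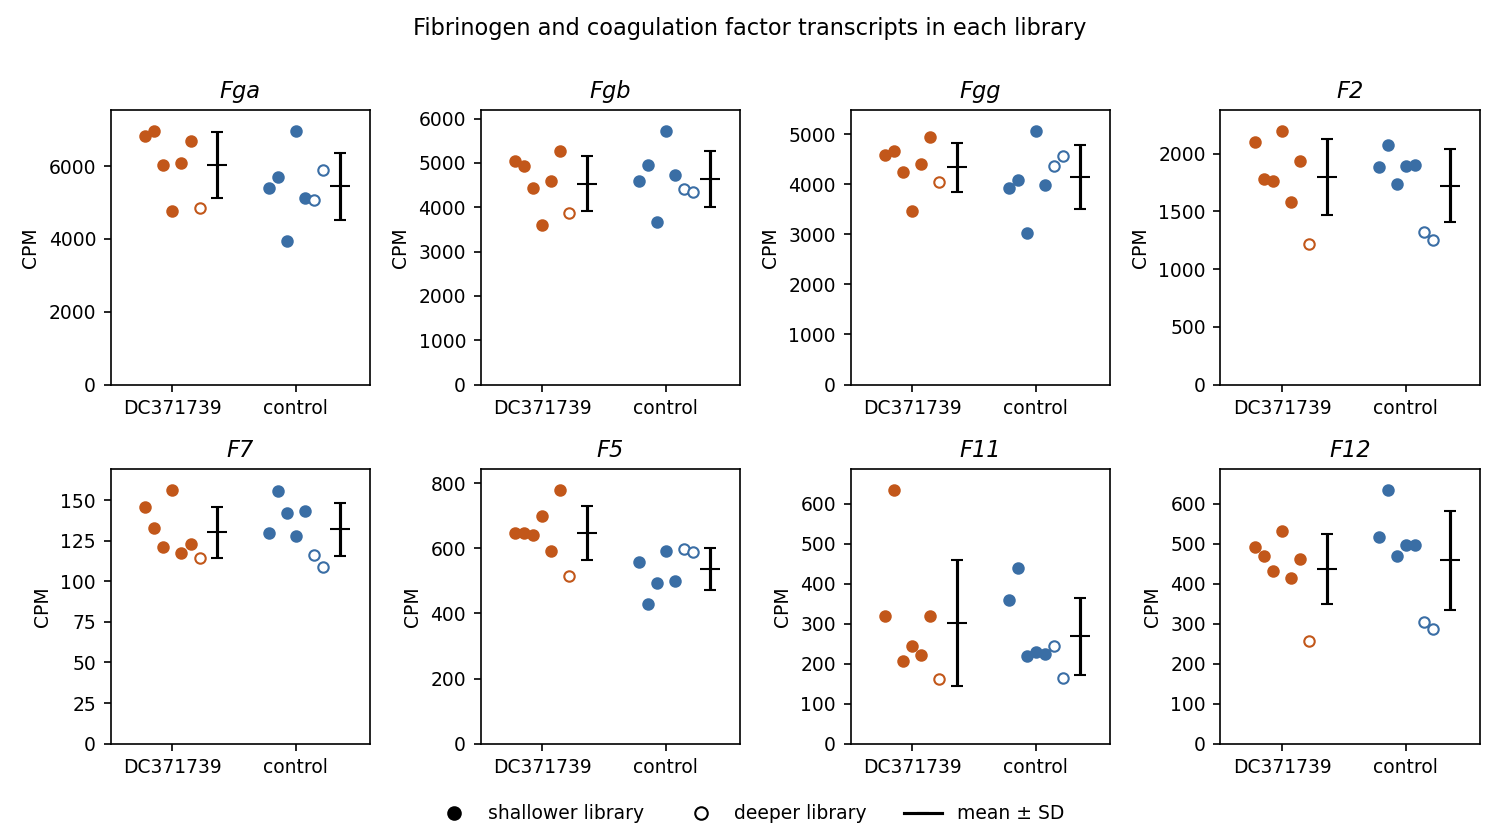
CPM (vertical axis from 0) of the 8 genes in each of 7 DC371739 and 7 control libraries, with filled points for shallower and open points for deeper libraries and bars for the mean ± SD of all 7. The groups overlap for every gene, the open points lie lowest for F2 and F12, and a single DC371739 library stands at 636 CPM for F11.

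The comparison of DC371739 with control asks whether the treatment changed the hepatic transcripts of clotting proteins. Over all 14 libraries no change was detectable in any of the 8 genes by the test used throughout. By that test, edgeR's quasi-likelihood test, 0 of the 8 genes passed an adjusted p of 0.05, against 1.85% of the 12166 genes tested (1.24% higher and 0.608% lower in DC371739). At an unadjusted p under 0.05 there was 1, F5. DESeq2 called 0 of the 8, against 6.92% of all genes (4.18% higher, 2.74% lower). Limma-voom with sample quality weights called 1 of the 8, again F5, against 22.4% of all genes (11.6% higher, 10.9% lower). The median log2 fold change was 0.06 over the 8 genes and -0.02 over all genes tested. In bulk liver RNA, fewer cells of a type and less RNA per cell cannot be told apart.

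Fga, the alpha chain, ranged from 4773 to 6977 CPM in DC371739 libraries (median 6076) and from 3954 to 6956 CPM in control libraries (median 5411). Only DC371739 replicate 2 lay above the control range, and 5 of 7 DC371739 libraries lay above the control median. The fitted log2 fold change was 0.15 (SE 0.12), with a 95% interval from -0.11 to 0.41 and an adjusted p of 0.530 (edgeR). Fgg, the gamma chain, ranged from 3470 to 4940 CPM (median 4400) in DC371739 libraries and from 3022 to 5071 CPM (median 4080) in control libraries, and all 7 DC371739 values fell inside the control range. Its log2 fold change was 0.06 (interval -0.17 to 0.30, adjusted p = 0.784, edgeR). Fgb, the beta chain, ranged from 3600 to 5269 CPM (median 4582) in DC371739 libraries and from 3667 to 5730 CPM (median 4597) in control libraries. Its log2 fold change was -0.03 (interval -0.26 to 0.20, adjusted p = 0.902, edgeR). As folds, the intervals run from 0.925 to 1.33 for Fga, 0.891 to 1.23 for Fgg and 0.834 to 1.15 for Fgb, which are the sizes of change that these libraries leave possible at 95% confidence.

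The lowest fibrinogen levels of each group sat in single shallower libraries. DC371739 replicate 4 had the lowest Fga, Fgb and Fgg of its group, at 4773, 3600 and 3470 CPM, and the highest F2, F7 and F12 of its group, at 2201, 156 and 531 CPM. Control replicate 3 had the lowest control values of all 3 chains, at 3954, 3667 and 3022 CPM, and control replicate 4 the highest, at 6956, 5730 and 5071 CPM. The spread between libraries of a group was similar for the 3 chains, with coefficients of variation of 11.1% to 15.0% in DC371739 and 13.6% to 16.8% in control libraries.

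Among the vitamin K-dependent factors, F2 ranged from 1220 to 2201 CPM (median 1783) in DC371739 libraries and from 1252 to 2075 CPM (median 1884) in control libraries. The log2 fold change was 0.06 (SE 0.14, interval -0.24 to 0.36, adjusted p = 0.848, edgeR). F7 ranged from 114 to 156 CPM (median 123) in DC371739 libraries and from 109 to 155 CPM (median 130) in control libraries, a log2 fold change of -0.02 (SE 0.10, interval -0.23 to 0.19, adjusted p = 0.935, edgeR). Of the 7 DC371739 libraries 4 lay within the control range for F2 and 6 for F7.

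F5 had the largest log2 fold change of the 8 genes over all 14 libraries. It ranged from 516 to 780 CPM (median 646) in DC371739 libraries and from 430 to 599 CPM (median 557) in control libraries. Of the 7 DC371739 libraries 5 lay above every control library, replicate 5 lay within the control range at 590 CPM, and the deeper replicate 7 was the lowest of its group at 516 CPM. Both deeper control libraries lay above that value, at 590 and 599 CPM, so the direction was the opposite within the deeper class. The log2 fold change was 0.27 (SE 0.10, interval 0.05 to 0.48), a fold of 1.20, with an unadjusted p of 0.0175 and an adjusted p of 0.153 (edgeR). Over the 11 shallower libraries F5 passed: it averaged 667 ± 65.2 CPM in 6 DC371739 libraries and 514 ± 62.7 CPM in 5 control libraries (SD), a log2 fold change of 0.38 (SE 0.09, interval 0.19 to 0.58) with an adjusted p of 0.0113. It was the only 1 of the 8 to pass there, in a comparison where 21.5% of all genes passed (11% higher and 10.5% lower in DC371739). In fits added after seeing the data, F5 passed whichever of the 11 libraries was left out, with log2 fold changes from 0.33 to 0.44 and adjusted p-values (edgeR) from 0.00634 to 0.0354. All of these fits lack the deeper libraries, so they do not test the effect of leaving those out. With a term for library class in the fit over all 14 its adjusted p was 0.0781.

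Platelets also carry factor V, so markers of platelets and megakaryocytes were read beside F5. The 5 with a symbol summed to 35.9 to 43.7 CPM in DC371739 libraries and 42.7 to 50.5 CPM in control libraries, and 3 were tested over all 14 libraries, where none passed (1 at an unadjusted p under 0.05, Ppbp; DESeq2 called 1, lower, and limma-voom 1 higher, Gp5, and 1 lower, Ppbp). Of all genes DESeq2 called 6.92% and limma-voom 22.4%. Ppbp, a chemokine of platelet granules, had a log2 fold change of -0.77 (adjusted p = 0.0512, edgeR). In the 11 shallower libraries Ppbp, Gp6 and Treml1 fell (log2 fold changes -0.90, -1.61 and -1.43, adjusted p = 0.00149, 0.00645 and 0.0212, edgeR). These were 3 of the 5 tested there, in a fit where 21.5% of all genes passed, 10.5% being lower. Gp6 and Treml1 are near the floor, since the filter on low counts removed both over all 14 libraries. The other two of the 5 did not pass there: Gp5, a platelet membrane glycoprotein, stood at 0.85 and Itga2b, an integrin chain of platelets, at -0.03 (adjusted p = 0.223 and 0.810, edgeR). Gp6, a collagen receptor of platelets, Treml1, a protein of their granules, Gp5 and Itga2b were named after their values were seen. The part of the platelet markers in the F5 result was not tested.

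The contact pathway genes did not pass. F11 was the most variable of the 8, from 162 to 636 CPM (median 245) in DC371739 libraries and from 164 to 439 CPM (median 230) in control libraries. The 636 CPM belonged to DC371739 replicate 2, and the next DC371739 value was 320 CPM. The log2 fold change was 0.17 (SE 0.27, interval -0.41 to 0.75, adjusted p = 0.775, edgeR), and -0.13 without DC371739 replicate 2, so its sign rests on that library. F12 ranged from 257 to 531 CPM (median 463) in DC371739 libraries and from 288 to 636 CPM (median 498) in control libraries, and 6 of 7 DC371739 libraries lay below the control median. Its log2 fold change was -0.07 (SE 0.18, interval -0.45 to 0.31, adjusted p = 0.867, edgeR). With the library class term it was -0.17 (SE 0.08, interval -0.34 to -0.01), with an unadjusted p of 0.0400 and an adjusted p of 0.140. That fit called 0 of the 8 genes, against 12.3% of all genes (5.62% higher and 6.7% lower in DC371739), while 2 of the 8, F5 and F12, had an unadjusted p under 0.05.

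**Figure D2:**
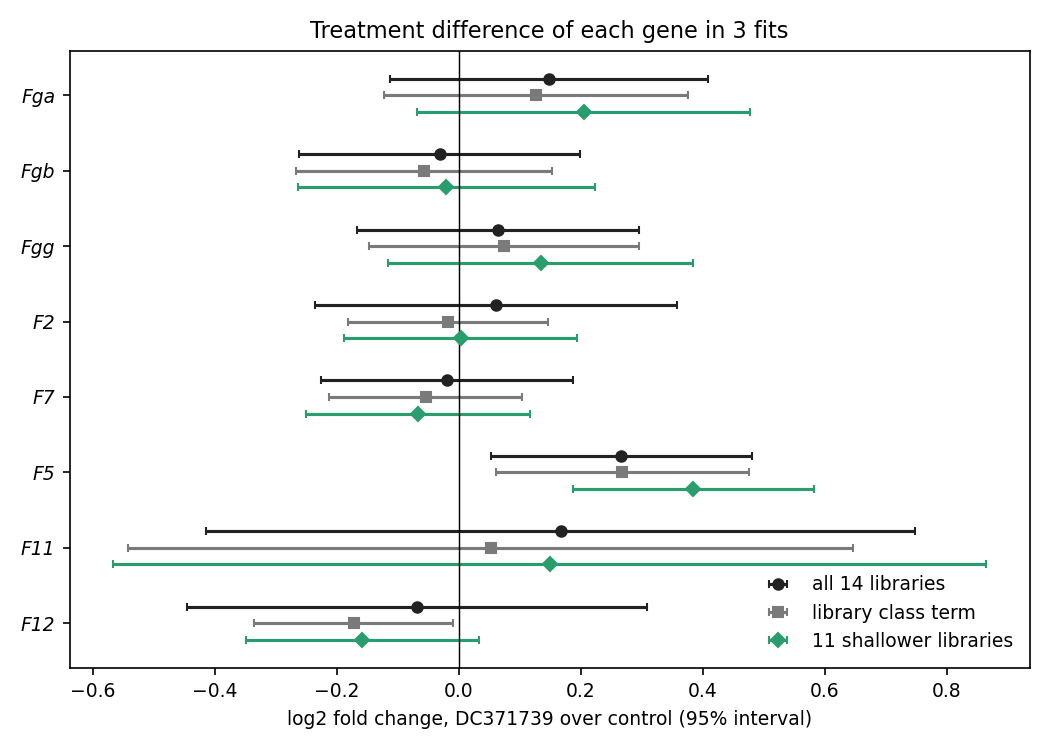
Log2 fold change of DC371739 over control (horizontal axis) for each of the 8 genes, with 95% intervals, from 3 fits: all 14 libraries, all 14 with library class as a term, and the 11 shallower libraries. The interval of F5 lies above 0 in each fit, from 0.05 to 0.48 over all 14, and that of F11 is the widest.

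Some factor genes separated the deeper from the shallower libraries. In the fit with library class as a term, F12, F2 and F7 were lower in the 3 deeper libraries, and none of the 8 was higher. Of all genes tested 46.4% differed between the classes, 23.8% being lower and 22.6% higher in the deeper libraries, so 3 of 8 is near the background. F12 stood at 257 to 304 CPM in the 3 deeper libraries and at 415 to 636 CPM in the 11 shallower ones, with no overlap, a log2 difference of -0.84 (SE 0.10, adjusted p = 6.5e-06, edgeR). F2 stood at 1220 to 1319 CPM in deeper libraries and at 1582 to 2201 CPM in shallower ones, a log2 difference of -0.59 (SE 0.10, adjusted p = 0.000137, edgeR). F7 stood at 109 to 116 CPM in deeper libraries and at 117 to 156 CPM in shallower ones, a log2 difference of -0.28 (SE 0.09, adjusted p = 0.0215, edgeR). For Fga, Fgb and Fgg the class differences were -0.12, -0.17 and 0.05, and none passed. The deeper class holds 1 DC371739 and 2 control libraries, so a treatment difference over all 14 libraries carries part of the class difference, and the labels name no batch.

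Since the 3 chains are assembled together, the ratio of their transcripts within a library was compared as well. A ratio of FPKM within a library does not depend on how libraries are scaled. The Fga to Fgb ratio was higher in DC371739 livers: it ranged from 0.801 to 0.899 (median 0.844) in DC371739 libraries and from 0.686 to 0.864 (median 0.733) in control libraries. Each of the 7 DC371739 ratios exceeded the control median. The ratio averaged 0.846 ± 0.0337 in DC371739 and 0.746 ± 0.0602 in control libraries (SD, n = 7 each), and the difference in mean log2 ratio, 0.18, had an exact two-sided permutation p of 0.00524, or 0.0157 adjusted over the 3 ratios. The adjusted p stayed between 0.00175 and 0.0315 whichever library was left out.

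Over the 11 shallower libraries the groups did not overlap in this ratio, which ran from 0.808 to 0.899 in DC371739 and from 0.686 to 0.773 in control libraries. The log2 difference was 0.23, a ratio 1.18-fold higher in DC371739, with an exact permutation p of 0.00216, the smallest that 462 regroupings can give, and an adjusted p of 0.00325. The highest control ratio over all 14, 0.864, was that of the deeper control replicate 7. In the other deeper libraries the ratio was 0.801 (DC371739 replicate 7) and 0.730 (control replicate 6), so the groups did not separate within that class.

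The Fgg to Fgb ratio behaved alike in the shallower libraries and not over all 14. Over all 14 libraries it ranged from 0.737 to 0.844 (median 0.773) in DC371739 and from 0.665 to 0.850 (median 0.690) in control libraries, a log2 difference of 0.10 (exact permutation p = 0.0967, adjusted p = 0.145), although each of the 7 DC371739 ratios exceeded the control median. The 3 deeper libraries held the 3 highest ratios, 0.798 to 0.850. Over the 11 shallower libraries it ran from 0.737 to 0.779 in DC371739 and from 0.665 to 0.715 in control libraries, again with no overlap, a log2 difference of 0.16 (exact permutation p = 0.00216, adjusted p = 0.00325). The Fga to Fgg ratio differed by 0.08 on the log2 scale over all 14 libraries (exact permutation p = 0.166, adjusted the same) and by 0.07 over the shallower ones (adjusted p = 0.0887). In the shallower libraries both ratios to Fgb were thus higher in DC371739, while none of the 3 chain transcripts passed on its own in any of the fits with edgeR given here.

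**Figure D3:**
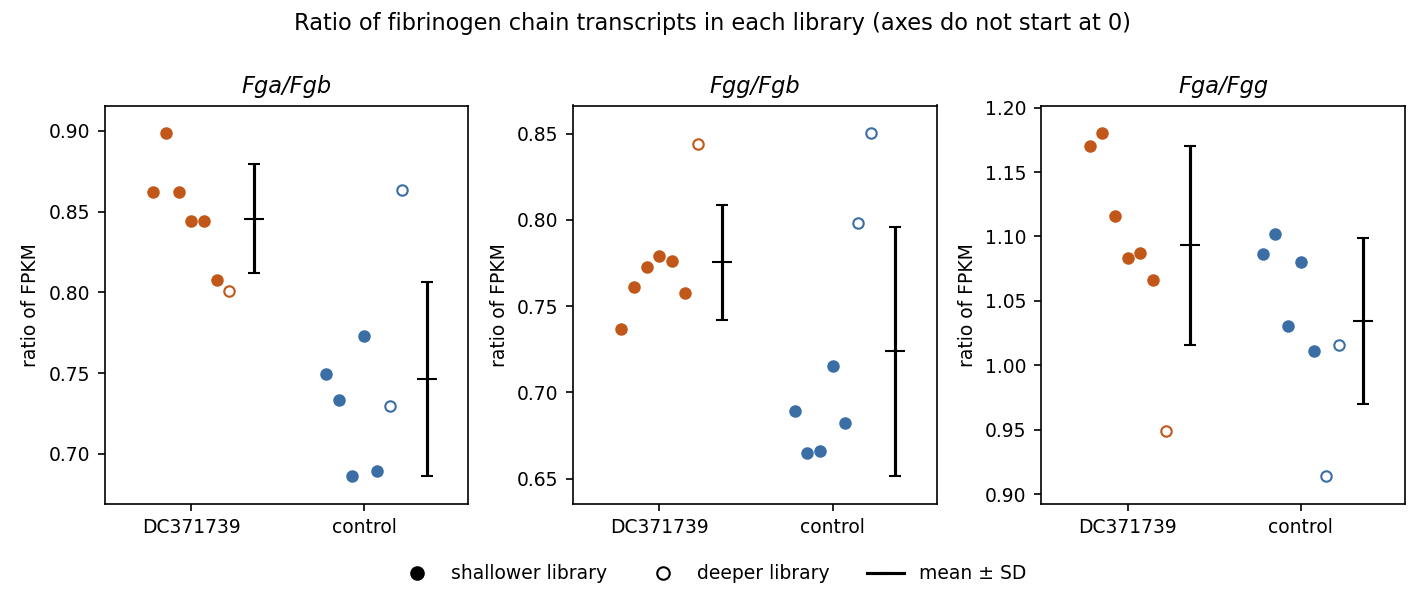
Ratios of FPKM between pairs of fibrinogen chain transcripts in each of 7 DC371739 and 7 control libraries (vertical axes do not start at 0), with filled points for shallower and open points for deeper libraries and bars for the mean ± SD. Among filled points the groups are separate for Fga/Fgb (at least 0.808 against at most 0.773) and for Fgg/Fgb (at least 0.737 against at most 0.715).

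Across libraries Fga and Fgg were high where Fgb was high, and for none of the factor genes did a relation with Fgb pass. Over the 11 shallower libraries the log2 CPM of Fgg correlated with that of Fgb with Pearson's r of 0.91 and Spearman's rho of 0.81 (permutation p = 0.000170 and 0.00392, adjusted over 7 relations 0.00119 and 0.0274). For Fga the values were 0.86 and 0.73 (permutation p = 0.000720 and 0.0149, adjusted 0.00252 and 0.0522). Without the 2 libraries of most extreme Fgb, DC371739 replicate 4 and control replicate 3, r was 0.78 for Fgg and 0.63 for Fga, with permutation p of 0.0119 and 0.0648 (0.0832 and 0.227 adjusted). The adjusted calls thus rest on those libraries, while r stayed positive. Within the 6 DC371739 libraries r was 0.99 for Fgg and 0.97 for Fga, and within the 5 control libraries, given without a test, 0.99 for both. For F2, F5, F7, F11 and F12 the r with Fgb over the 11 libraries lay between -0.35 and 0.33, and none passed (adjusted permutation p of 0.548 or more over the 7 relations).

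**Figure D4:**
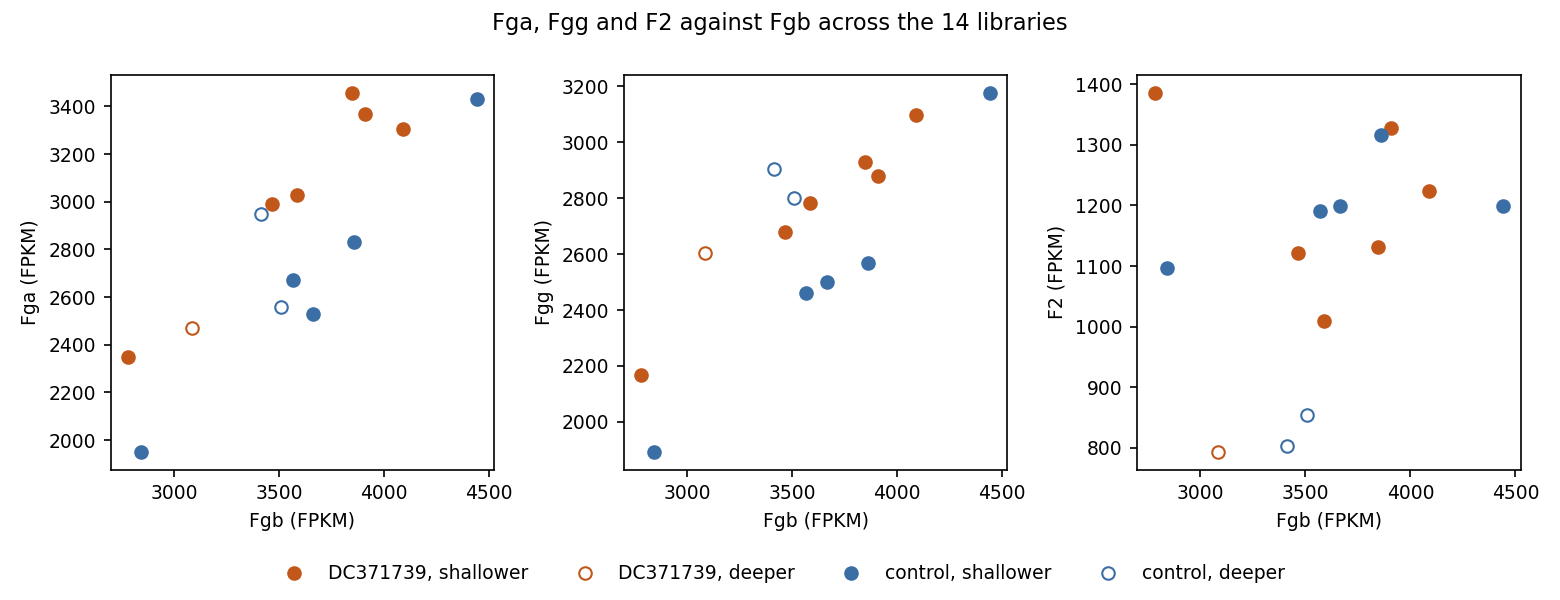
FPKM of Fga, Fgg and F2 (vertical axes) against FPKM of Fgb (horizontal axes) in the 14 libraries, with DC371739 and control in different colours and open points for deeper libraries (axes do not start at 0). Fga and Fgg climb with Fgb along separate lines for shallower DC371739 and control libraries, and F2 does not (r of 0.91 for Fgg and 0.01 for F2 over the 11 shallower libraries).

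Likeness to Fgb was sought among 2992 other genes, those with a symbol and a log2 CPM averaging 5 or more. The most alike across the 11 shallower libraries was Hp (haptoglobin, a plasma protein of the acute phase, r = 0.82). Next were Ccl24 (a chemokine, 0.79) and Apcs (serum amyloid P, a gene of the acute phase list below, 0.78). Snx4 (a sorting nexin of endosomes, 0.76) and Capzb (a subunit of the actin capping protein, 0.76) followed. Over all 14 libraries r was 0.65, 0.62, 0.78, 0.05 and 0.51 in the same order, so Snx4 was alike only in the shallower ones. The correlations are descriptions, taken as the highest among many genes.

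The wider haemostatic system was described by 8 related lists, of which 66 genes were tested. Over all 14 libraries 2 of the 66 were higher in DC371739 and none lower (17 at an unadjusted p under 0.05), or 3.03% of the 66 against 1.85% of all genes, while DESeq2 called 9 (13.6% against 6.92% of all genes) and limma-voom 20 (30.3% against 22.4%). With the deeper libraries left out 13 were higher and 3 lower, 24.2% of the 66 against 21.5% of all genes. Counts given below for single lists and for cell markers are to be read against these shares of all genes.

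Of 3 tested thrombin receptors and relatives 1 rose over all 14 libraries, F2rl2, and all 3 had positive values (median log2 fold change 0.44). F2rl2 encodes PAR3, a receptor that thrombin cleaves and that acts largely as its cofactor. It ranged from 2.83 to 5.69 CPM (median 3.90) in DC371739 libraries and from 1.38 to 3.19 CPM (median 1.73) in control libraries, a log2 fold change of 0.97 (SE 0.22, adjusted p = 0.0394, edgeR). It did not pass without any 1 of control replicates 2, 3, 5 and 6 or DC371739 replicates 2, 3, 5 and 6 (adjusted p up to 0.0935). F2r, the main thrombin receptor PAR1, ranged from 12.4 to 18.2 CPM (median 14.8) in DC371739 libraries and from 7.62 to 16.3 CPM (median 10.1) in control libraries. Its log2 fold change was 0.44 (adjusted p = 0.157, edgeR), and 0.66 over the 11 shallower libraries, where it passed (adjusted p = 0.00619). F2rl1, a receptor of other proteases, had a log2 fold change of 0.31 (adjusted p = 0.668, edgeR). Hepatocytes are not the main site of these receptors.

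Of 8 tested procoagulant genes outside the 8 main ones, none passed over all 14 libraries (2 at an unadjusted p under 0.05 in edgeR, 0 adjusted in DESeq2, 1 in limma-voom), with a median log2 fold change of -0.08. Vwf, the platelet adhesion protein of endothelium, had a log2 fold change of 0.63 (adjusted p = 0.135, edgeR) and 0.57 over the shallower libraries, where it passed (0.0332). F13b, a carrier subunit of the fibrin cross-linking factor XIII, also passed there, at 0.29 (0.0344, named after its values were seen), against 0.03 over all 14. Klkb1, plasma prekallikrein, the partner of factor XII, stood at -0.18 (adjusted p = 0.191, edgeR), F3, tissue factor, at -0.38 (0.294) and Lman1, which carries factors V and VIII out of the endoplasmic reticulum, at -0.19 (0.339).

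Of 11 tested anticoagulants none passed over all 14 libraries (1 at an unadjusted p under 0.05 in edgeR, 1 adjusted in DESeq2 and 1 in limma-voom) and their median was -0.04. Tfpi2, an inhibitor of plasmin and other proteases, was low, at 0.84 to 10.7 CPM (median 1.06) in DC371739 libraries and 0.23 to 1.19 CPM (median 0.63) in control libraries, a log2 fold change of 1.95 (SE 0.58, adjusted p = 0.0820, edgeR) and 2.35 over the shallower libraries (0.0492). Its DC371739 values were uneven, with a mean of 2.75 ± 3.59 CPM (SD) far above their median. Serpina10, an inhibitor of factor Xa, stood at 0.11, Procr, the protein C receptor, at 0.21, and Serpina5, the protein C inhibitor, at -0.43 (adjusted p = 0.424, 0.415 and 0.414, edgeR).

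Of 8 tested genes of fibrinolysis, the dissolving of fibrin by plasmin, none passed over all 14 libraries (1 at an unadjusted p under 0.05 in edgeR, 1 adjusted in DESeq2 and 3 in limma-voom), and 7 of 8 log2 fold changes were positive. Serpine2, a protease inhibitor of tissues, stood at 0.46 (adjusted p = 0.268, edgeR) and passed over the shallower libraries (0.66, 0.0318). Plau, urokinase, stood at 0.34 (adjusted p = 0.327, edgeR) and Serpinf2, the plasmin inhibitor of plasma, at 0.10 (0.552).

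Of 4 tested genes of the vitamin K cycle, which modifies factors such as F2 and F7 after translation, none passed over all 14 libraries (0 at an unadjusted p under 0.05 in edgeR, 0 adjusted in DESeq2, 1 in limma-voom). Ggcx, the gamma-glutamyl carboxylase, stood at 0.11, Nqo1, a quinone reductase, at 0.11 and Vkorc1l1, a vitamin K reductase, at 0.01 (adjusted p = 0.590, 0.560 and 0.957, edgeR). Calu, calumenin, an inhibitor of the carboxylase, stood at 0.40 (0.259) and passed over the shallower libraries at 0.72 (0.00664).

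**Figure D5:**
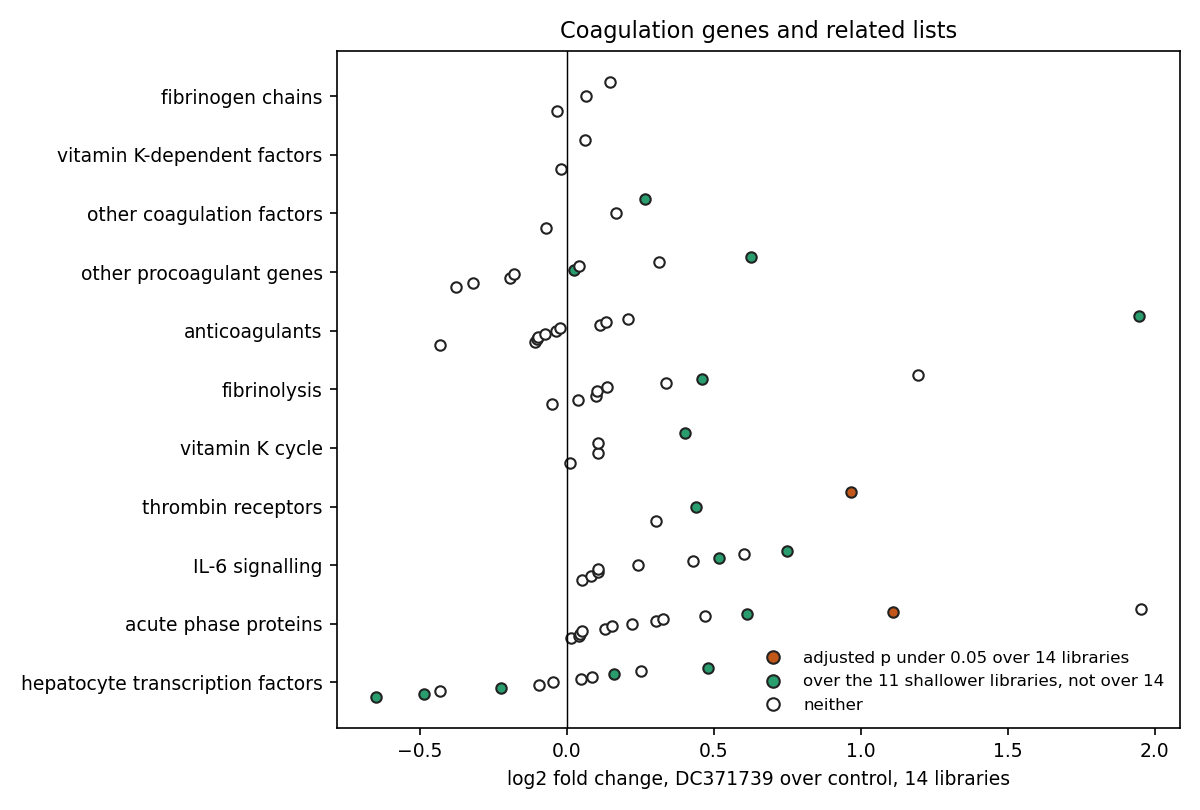
Log2 fold change of DC371739 over control over 14 libraries (horizontal axis) for each tested gene of the fibrinogen chains, the factors and 8 related lists, 1 row per list, coloured by whether it passed an adjusted p of 0.05 over all 14 libraries, over the 11 shallower ones alone, or in neither fit. The fibrinogen chains and vitamin K-dependent factors lie between -0.03 and 0.15, and the only genes to pass over all 14 are F2rl2 among thrombin receptors and Mt2a among acute phase proteins.

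The regulators of fibrinogen were compared in the same way. Of 9 tested genes of interleukin-6 signalling all 9 had positive log2 fold changes over all 14 libraries (median 0.24, against -0.02 over all genes) and 8 over the shallower ones, and none passed over all 14 libraries (2 at an unadjusted p under 0.05 in edgeR, 1 adjusted in DESeq2 and 2 in limma-voom). Stat3, which drives fibrinogen transcription after interleukin-6, ranged from 39.3 to 124 CPM (median 80.6) in DC371739 libraries and from 34.9 to 65.1 CPM (median 45.1) in control libraries. It passed over the shallower libraries (log2 fold change 0.80, SE 0.20, adjusted p = 0.0177), as did Il6ra, the interleukin-6 receptor (0.58, adjusted p = 0.0178, edgeR). These were 2 of the 9, or 22.2% against 21.5% of all genes in that fit, which is near the background. Osmr, the oncostatin M receptor, stood at 0.60 and Il1b at 0.43 over all 14 (adjusted p = 0.275 and 0.353, edgeR).

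Of 13 tested acute phase genes, all with positive values over all 14 libraries (median 0.22) and 12 of 13 over the shallower ones, Mt2a, a metal-binding metallothionein, rose (log2 fold change 1.11, SE 0.17, adjusted p = 0.0101, edgeR) and 12 did not pass. Of all 13, 5 had an unadjusted p under 0.05, Mt2a included. Saa3, an inducible serum amyloid A, stood at 1.95 (0.0756), C3, the central complement component, at 0.61 (0.0996) and Lbp, the lipopolysaccharide-binding protein, at 0.47 (0.178). C3 passed over the shallower libraries (0.63, adjusted p = 0.0208, edgeR), as did Mt2a (1.11, adjusted p = 0.00144, edgeR). Those 2 are 15.4% of the 13, against 21.5% of all genes in that fit. Other genes of the list, chosen after their values were seen, lay near the -0.03 to 0.15 of the fibrinogen chains: Serpina1, alpha-1 antitrypsin, stood at 0.01, Itih3, an inter-alpha-trypsin inhibitor chain, at 0.05 and Hp at 0.13 (adjusted p = 0.938, 0.854 and 0.674, edgeR).

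Of 11 tested hepatocyte transcription factors none passed over all 14 libraries (4 at an unadjusted p under 0.05 in edgeR, 2 adjusted in DESeq2 and 6 in limma-voom). The DESeq2 and limma-voom calls were 18.2% and 54.5% of the 11, against 6.92% and 22.4% of all genes. In the 11 shallower libraries 2 of these factors were higher and 3 lower, 45.5% of the 11 against 21.5% of all genes. Hnf4a, which many coagulation factor genes depend on, ranged from 73.6 to 146 CPM (median 123) in DC371739 libraries and from 63.9 to 109 CPM (median 85.2) in control libraries, a log2 fold change of 0.48 (SE 0.14, adjusted p = 0.0795, edgeR), and 0.52 over the shallower libraries (0.00504). Cebpa, the C/EBP alpha gene, reached at most 51.1 CPM (median 29.2) in DC371739 libraries and 63.4 CPM (median 53.8) in control libraries, with a log2 fold change of -0.65 (SE 0.20, adjusted p = 0.0839, edgeR) and -0.86 over the shallower libraries (0.00930). Foxa3, lower, and Prox1, higher, also passed there (-0.70 and 0.39, named after their values were seen). Foxa1 and Nr1h4 stood at -0.43 and 0.25 over all 14 (adjusted p = 0.201 and 0.235, edgeR).

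Markers of other cells were read beside these genes, and none of the markers with a symbol was at 0 in all libraries. Of 13 tested macrophage markers 3 rose over all 14 libraries, Laptm5, Ctss and Mpeg1, named after their values were seen (log2 fold changes 0.70, 0.77 and 0.80), which is 23.1% of the 13 against 1.85% of all genes. DESeq2 called 7 of the 13, limma-voom 8, the fit with library class 8 and the fit without the deeper libraries 6, all higher. In the same order these are 53.8%, 61.5%, 61.5% and 46.2%, against 6.92%, 22.4%, 12.3% and 21.5% of all genes. The complement genes C1qa, C1qb and C1qc had negative values over all 14 (-0.26, -0.07 and -0.06, adjusted p = 0.495, 0.891 and 0.894, edgeR). The 13 markers summed to 932 to 1439 CPM in DC371739 and 815 to 1234 CPM in control libraries. Of 11 sinusoidal endothelial markers none passed over all 14 (4 unadjusted in edgeR, 2 adjusted in DESeq2, 4 in limma-voom). Over the shallower libraries 3 were higher, 27.3% against 21.5% of all genes. The endothelial markers summed to 297 to 405 CPM in DC371739 and 242 to 368 CPM in control libraries. Of 11 stellate markers none passed over all 14 (4 unadjusted in edgeR, 2 adjusted in DESeq2, 4 in limma-voom). Over the shallower libraries 2 were higher, 18.2% against 21.5% of all genes. The stellate markers summed to 322 to 519 CPM in DC371739 and 248 to 369 CPM in control libraries. Of 3 neutrophil, 5 cholangiocyte and 1 erythroid marker tested none passed over all 14 in edgeR (1, 0 and 0 unadjusted; 1, 0 and 0 adjusted in both DESeq2 and limma-voom). Their part in the values of thrombin receptors, Vwf and the acute phase genes was not tested.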

How the data were processed

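The submitters' processing notes name edgeR, featureCounts 2.0.0 and HISAT2 2.2.1; no source used here gives the build, annotation or strand setting. The labels' protocols name both a TruSeq and a NEBNext kit for every sample. The authors deposited whole-number counts per Ensembl gene and, for genes with a symbol, FPKM per library with their own log2 fold changes, log2 mean CPM, p-values and adjusted p-values. In the authors' deposited table the adjusted p of F5 was 0.156 and none of the 8 genes passed 0.05. Members and lists were chosen with earlier results of these data known.

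Counts were tested with edgeR 4.0.16 (R 4.3.3): TMM scaling, default filter (minimum count 10), robust quasi-likelihood F-test on treatment alone, Benjamini-Hochberg over 12166 genes, and intervals from the fold change and its F statistic. CPM use TMM-scaled totals; log2 CPM a prior count of 2. Chain ratios were tested by exact permutation over samples, correlations with 100000 permutations. Scaling, filters, DESeq2 1.42.0, limma 3.58.1 (voom; log2 of FPKM plus 1 or 0.1), a block on replicate number, a term for library class (above 20000000 counts) and left-out libraries were tried. The genes named were the 8, up to 4 of smallest p per list, and the 5 most like Fgb; others are marked where named, and some genes are not reported here. The test was tested on simulated data. Replicates differed beyond sampling noise in all 42 pairs within groups (chi-square at least 11.2 times its degrees of freedom). Reads shared by near-identical or overlapping genes cannot be told apart.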

Additional observations from a re-analysis of the deposited data

Results flagged for a closer look

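In each group of 7 libraries, the levels of the 8 genes and the 3 chain ratios were searched for a library far from the others (22 groups of values; chance marks about 1 in 20). There were 3, all in the DC371739 group. F11 stood at 636 CPM in DC371739 replicate 2, where the gap to the next library took 0.67 of the group's range. F12 stood at 257 CPM in DC371739 replicate 7, a deeper library (0.58 of the range), near the 288 and 304 CPM of the deeper control libraries. The Fgg to Fgb ratio stood at 0.844 in the same DC371739 replicate 7 (0.61 of the range), beside 0.798 to 0.850 in the deeper libraries as a whole.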

How the results depend on the processing

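The number of called genes, 225 over all 14 libraries in edgeR, moved with nearly every choice: 842 with DESeq2, 2727 with limma-voom, 1499 with library class as a term, 2635 without the 3 deeper libraries, and 25 to 1069 when a single library was left out. It moved by over 1.5 times without control replicate 1, 2, 3, 5 or 7 (106, 73, 53, 63 and 542) and without DC371739 replicate 2, 3, 5, 6 or 7 (51, 25, 77, 25 and 1069). The count among the 8 genes stayed at 0 except for 1, F5, with limma-voom and 1, again F5, without the deeper libraries. The Fga to Fgb difference (log2) kept its sign and passed in each left-out fit (0.16 to 0.22). The Fgg to Fgb difference ran from 0.083 to 0.14 and passed without control replicate 7 (0.14, adjusted exact permutation p = 0.0184) and without the 3 deeper libraries (0.16). The Fga to Fgg difference ran from 0.050 to 0.11 and passed without DC371739 replicate 7 (0.11, adjusted exact permutation p = 0.0332) and, among the shallower libraries, without DC371739 replicate 6 (0.09, adjusted exact permutation p = 0.0476, chosen after seeing the data). Of the 2 correlations with Fgb that passed, 1 did so within DC371739 libraries and 0 without the 2 libraries of most extreme Fgb. Correlations that changed sign were those of F2 (-0.31) and F12 (-0.40) within DC371739 libraries, and of F7 (0.15) without the 2 extreme libraries.

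Values near 0 changed sign: the log2 fold change of F7 with upper-quartile scaling (0.0043) and with library size alone (0.0023), Fgb with library size alone (0.0011) and limma-voom (0.012), F2 with limma-voom (-0.0089) and the class term (-0.018), and Vkorc1l1 with the class term (-0.00028). Leaving out 1 library turned Fgb (-0.082 to 0.026), Fgg (-0.00030 to 0.12), F2 (-0.0022 to 0.14), F7 (-0.070 to 0.023), F11 (-0.13 to 0.33), F12 (-0.15 to 0.026) and Vkorc1l1 (-0.021 to 0.047). Over the log2 fold changes of the named genes, without the ratios, 1045 of 1138 alternative values kept their direction and side of the threshold. Of the rest, 61 newly passed, 9 no longer did and 23 changed sign. The causes were not tested.

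With replicate number as a block, 8 of all genes tested passed. None of the fibrinogen and factor genes was among them, the smallest adjusted p being that of F5 (0.168, edgeR). F2rl2 did not pass (adjusted p = 0.0903, edgeR), nor did the Fga to Fgb difference of 0.18 (adjusted exact permutation p = 0.0625). Same-numbered libraries deviated together with r from -0.13 to 0.55, 2 of 7 pairs over 0.1, and 0 of 7 correlated best with their own number. The r of 0.55 was that of replicate 7, where both libraries are of the deeper class. This check cannot tell whether same-numbered samples share more than a number. Depth limits little, since each of the 8 genes had at least 1989 counts per library; the spread between libraries does.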

Other observations

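Some abundant hepatic proteins of clotting control, chosen after their values were seen, also lay near 0. Serpinc1, which encodes antithrombin, ranged from 1749 to 2488 CPM (median 1982) in DC371739 libraries and from 1821 to 2657 CPM (median 2110) in control libraries, a log2 fold change of -0.10 (SE 0.10, adjusted p = 0.636, edgeR). Proc, which encodes protein C, had a log2 fold change of -0.02 and Plg, plasminogen, one of 0.10 (adjusted p = 0.952 and 0.766, edgeR).

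The 2 acute phase genes most like Fgb across libraries, Hp and Apcs, had log2 fold changes of 0.13 and 0.15 (adjusted p = 0.674 and 0.733, edgeR). These values were close in size to that of Fga (0.15) and above that of Fgb itself (-0.03). They lay well under those of Mt2a, Saa3 and C3.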
